A study of Mus musculus with 244 samples.

Results

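Retnla-listing baseline macrophages were the 57 of 125 baseline cells in which Retnla stood at an RPKM (reads per kilobase of transcript per M reads) of 1 or more, out of 241 cells in the series. They were thus selected on their own Retnla values, which are given as a description only, and were set against the other 68 baseline cells. A gene is called listed in a cell where its RPKM was 1 or more. All baseline cells came from the aortic arch of Apoe-/- mice, which lack apolipoprotein E and so develop plaque, after 16 weeks on a high fat diet. Regression cells, used here for 1 comparison, came from such arches 3 days after they had been grafted into WT mice on chow, so that the genotype and diet of the host and the operation cannot be told apart. Every cell was sorted as CD45+CD11b+F4/80+ and captured alone on a Fluidigm C1 chip, and each library holds 1 cell. The labels name no animal, so baseline is 1 sample. No p-value is given, differences have no replicate check, and SDs are spreads over cells.

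Retnla encodes RELM-alpha (FIZZ1), a small secreted protein that is a classic marker of mouse macrophages exposed to interleukin 4 or interleukin 13, which act through the transcription factor STAT6. The same macrophages often carry galactose-binding lectins, encoded by the neighbouring genes Mgl2 (CD301b) and Clec10a (CD301a). In mice, Retnla together with Mgl2 and Ear2 is also known from monocyte-derived resident macrophages of the body cavities and of several tissues. STAT6 binds a palindrome of TTC and GAA with 4 bases of any kind between them, which reads the same on both strands.

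The stretches upstream of Retnla and Mgl2 are shown because these genes mark the cells described here. Each is the 250 bases that end at the start given in the RefSeq promoter table (GRCm38.p6), and capitals mark a match to the palindrome. For Mgl2, whose whole RefSeq gene record begins further upstream, 232 of these bases lie inside that record.
Retnla, chr16:48842359-48842608, plus strand: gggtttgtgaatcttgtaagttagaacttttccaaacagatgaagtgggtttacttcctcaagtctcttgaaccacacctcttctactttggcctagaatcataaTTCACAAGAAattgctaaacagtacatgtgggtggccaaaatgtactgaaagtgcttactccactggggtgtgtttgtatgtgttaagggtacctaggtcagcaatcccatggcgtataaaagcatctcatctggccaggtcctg
Mgl2, chr11:70130107-70130356, plus strand: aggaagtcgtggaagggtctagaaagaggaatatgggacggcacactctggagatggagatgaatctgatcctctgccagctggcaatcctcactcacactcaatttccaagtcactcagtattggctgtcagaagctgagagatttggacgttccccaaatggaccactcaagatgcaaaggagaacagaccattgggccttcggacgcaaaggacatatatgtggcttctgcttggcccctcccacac
Retnla held 1 match, which begins 145 bases before that start, and the stretch shown for Mgl2 held none. The palindrome was looked for upstream of 14 genes: Retnla, Mgl2, Clec10a and the other 11 of the 12 genes that led the comparison given further on. Of these, 10 matched the RefSeq table, and Retnla was the 1 that held it. Over all promoters of the table it occurred in 1923 of 32851 (5.85%). Clec10a, Dok2, Fn1 and Maf were not matched. A match is a description of the letters, and binding was not measured.

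Retnla was listed in 30 of 69 cells numbered 21 to 92 (43.5%, exact 95% binomial interval 31.6 to 56.0%) and in 27 of 56 cells numbered 112 to 167 (48.2%, interval 34.7 to 62.0%). These intervals cover counting error only. The lowest value inside the threshold was 1.39 RPKM, and all 68 cells outside it stood at 0. The levels were spread widely, with 20 cells at 1 to below 10 RPKM, 11 at 10 to below 100, 9 at 100 to below 1000 and 17 above. No cell stood between 69.1 and 155.6 RPKM, and the cells are divided there. In 31 cells Retnla ran from 1.39 to 69.1 RPKM with a median of 7.17, and in 26 cells it ran from 155.6 to 30770 RPKM with a median of 3807, of which 17 exceeded 1000. The cells at 100 or more are called Retnla-high below and those at 1 to below 100 Retnla-low, and this division at 100 was chosen after seeing the values. The 3 pairs of near-identical libraries that were averaged (57 and 58, 64 and 65, 70 and 71) were all Retnla-listing. Their copies read 5.09 and 5.01, 379 and 313, and 6.39 and 3.32 RPKM of Retnla.

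In reads, the medians of these ranges lay far apart, but their nearest cells with a depth stood at 39.0 and 155 reads. One read of the 599-base Retnla transcript was worth 1.53 RPKM at the median baseline depth of 1.09 M reads (range 0.407 to 8.12 M, 112 baseline libraries with a depth). In the 27 Retnla-low cells that were no copies and had a depth, Retnla came to a median of 5.00 reads and at most 39.0. Of these cells, 6 held 1 read and 17 held 5 or fewer, where a value within 0.1 of a whole read was counted as that read, as it was in all 27. In the 22 Retnla-high cells with a depth it came to between 155 and 25010 reads, with a median of 4450.

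The listing of Retnla also followed the sample numbers. Every cell numbered 50 to 62 (12 of 12) and every cell numbered 115 to 125 (11 of 11) listed Retnla, and 20 of these 23 cells were Retnla-low, leaving 11 Retnla-low cells elsewhere. The bounds of these runs were chosen after seeing the values. Every cell from 63 to 73 listed Retnla too, and of those, cells 63, 64, 66 to 69 and 72 were Retnla-high. None of the 25 cells numbered 21 to 45 listed Retnla at either level, where 3 cells would make 12%. Cell 46 was the first baseline cell to list it, and these bounds too were chosen after seeing the values. The 0 follows from that choice. Lyve1, a hyaluronan receptor of resident vessel-wall macrophages, was above 0 in 11 of 12 cells numbered 50 to 62 and 11 of 11 numbered 115 to 125. Its medians there were 1.60 and 1.56 RPKM. Among all baseline cells Lyve1 was listed in 9 of 26 Retnla-high, 18 of 31 Retnla-low and 14 of 68 other cells. What the numbers stand for, such as a capture chip or a sequencing lane, the labels do not say, and their part in the Retnla values was not tested. In regression cells, 2 of the 109 cells below 100 RPKM listed Retnla, against 31 of the 99 baseline cells below 100 (31.3%).

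**Figure D1:**
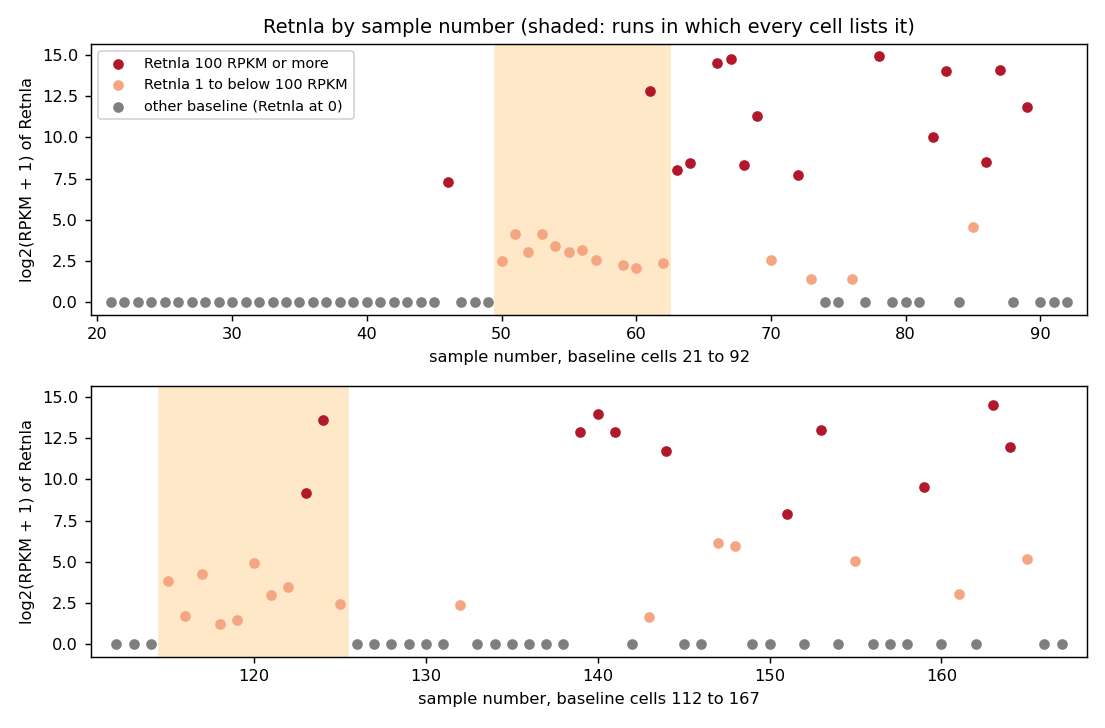
Retnla in each baseline cell, as log2(RPKM + 1) on the vertical axis, against the sample number on the horizontal axis (top, cells 21 to 92; bottom, cells 112 to 167). Shading marks numbers 50 to 62 and 115 to 125, where every cell lists Retnla and 20 of 23 stand below 100 RPKM. Cells 63 to 73, not shaded, also all list it. The 26 cells at 100 RPKM or more lie between numbers 46 and 89 and between 123 and 164.

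Retnla-high cells listed more genes than Retnla-low cells, a median of 3084.5 and 2301 genes, against 2559 in other baseline cells. Retnla-high cells listed more genes than Retnla-low cells in both number stretches, but stood above the other cells in 1 of them only. In cells 112 to 167 the medians were 3387 for Retnla-high, 2284.5 for Retnla-low and 2493 for other cells. In cells 21 to 92 they were 2451 for Retnla-high, 2301 for Retnla-low and 2717 for other cells, so Retnla-high cells listed fewer genes than the others there. Median depth was 1.15 M reads in Retnla-high, 0.889 M reads in Retnla-low and 1.26 M reads in other cells. Mitochondrial genes took a median of 5.90% of the summed RPKM in Retnla-high, 9.59% in Retnla-low and 6.74% in other cells. Ribosomal protein genes took 8.09% in Retnla-high, 8.55% in Retnla-low and 9.05% in other cells. For genes detected, values with it as a term and with cells of at least 2000 genes are given further on. The part of the other measures in the results was not tested.

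The sorted identity held in all groups. At least 3 of 12 macrophage markers were listed in 26 of 26 Retnla-high, 31 of 31 Retnla-low and 68 of 68 other cells. Itgam, which encodes the CD11b of the sort, was listed in 26 of 26 Retnla-high, 24 of 31 Retnla-low and 52 of 68 other cells. Apoe was listed in 2 of 26 Retnla-high, 3 of 31 Retnla-low and 4 of 68 other cells and reached 178.2 RPKM at most, although the donors lack the gene. At least 3 of 10 markers of type 2 dendritic cells, which can also carry Mgl2 and Clec10a, were listed in 2 of 26 Retnla-high cells, 2 of 31 Retnla-low cells and 9 of 68 other cells. Their summed RPKM ran from 0 to 1267 in Retnla-high cells, from 0 to 870.5 in Retnla-low cells and from 0 to 2220 in other cells. Of the 10 markers, 5 were not listed in any of the 26 Retnla-high cells (Flt3, Zbtb46, Dpp4, Ffar2 and Klrd1), for which 3 cells, or 11.5%, is the upper limit. In other cells Flt3 was listed in 5 of 68 and Zbtb46 in 1 of 68, and Cd209a was listed in 3 of 26 Retnla-high, 0 of 31 Retnla-low (upper limit 9.68%) and 5 of 68 other cells. At least 3 markers of classical monocytes were listed in 3 of 26 Retnla-high, 5 of 31 Retnla-low and 13 of 68 other cells, and of nonclassical monocytes in 6 of 26, 7 of 31 and 15 of 68 cells of these groups. Type 1 dendritic cell markers met this in 1 of 26 Retnla-high, 2 of 31 Retnla-low and 4 of 68 other cells, and neutrophil markers in 1 of 26, 2 of 31 and 2 of 68 cells of these groups. Markers of mature dendritic cells and of fibroblasts met it in 2 of 68 other cells each and in none of 57 Retnla-listing cells (upper limit 5.26%). None of 125 baseline cells met it (upper limit 2.40%) for 11 further types, namely B, T and NK cells, type 2 innate lymphoid cells, eosinophils, mast cells or basophils, smooth muscle, endothelium, mesothelium, adipocytes, and erythroid cells or platelets.

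Both lectin genes were higher in Retnla-high cells, and neither was in Retnla-low cells. Mgl2 (gene 216864, chromosome 11, 70130125 to 70137542, mm10) was listed in 23 of 26 Retnla-high cells (88.5%, interval 69.8 to 97.6%), 15 of 31 Retnla-low cells (48.4%, 30.2 to 66.9%) and 35 of 68 other cells (51.5%, 39.0 to 63.8%). Its lowest, median and highest values were 0, 225.8 and 3216 RPKM in Retnla-high cells, 0, 0.911 and 1281 RPKM in Retnla-low cells, and 0, 1.36 and 1895 RPKM in other cells. The groups overlapped over their whole range, but the median Retnla-high cell stood far above the medians of the others, which lay near 0. The mean log2(RPKM + 1) of Mgl2 was 6.84 ± 3.31 in 26 Retnla-high cells, 2.55 ± 3.67 in 31 Retnla-low cells and 3.53 ± 4.11 in 68 other cells. The difference from other baseline cells was thus 3.31 for Retnla-high cells (2.43 in cells 21 to 92 and 4.49 in cells 112 to 167) and -0.98 for Retnla-low cells. Over all 57 Retnla-listing cells it came to 0.98. All differences below are on this scale, which understates those of low genes, and are taken against the same 68 cells.

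Clec10a (gene 17312, chromosome 11, 70166623 to 70170836) was listed in fewer cells, 12 of 26 Retnla-high, 4 of 31 Retnla-low and 15 of 68 others. It reached 319.9 RPKM in Retnla-high, 352.5 RPKM in Retnla-low and 273.6 RPKM in other cells, with a median of 0 in every group. Its difference was 1.88 for Retnla-high cells (1.51 and 2.39 by stretch) and -0.07 for Retnla-low cells. Every Retnla-high cell that listed Clec10a also listed Mgl2. Both lectins were listed in 12 of 26 Retnla-high cells (46.2%, interval 26.6 to 66.6%), 2 of 31 Retnla-low cells (6.45%, 0.791 to 21.4%) and 11 of 68 other cells (16.2%, 8.36 to 27.1%). Mgl2 and Clec10a are near-identical neighbours, and how the authors' counting shared reads between them is not given. The other genes of the Retnla family on chromosome 16 were all but absent: Retnlb was at 0 in all 125 cells (upper limit 2.40%) and Retnlg was listed in 1.

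**Figure D2:**
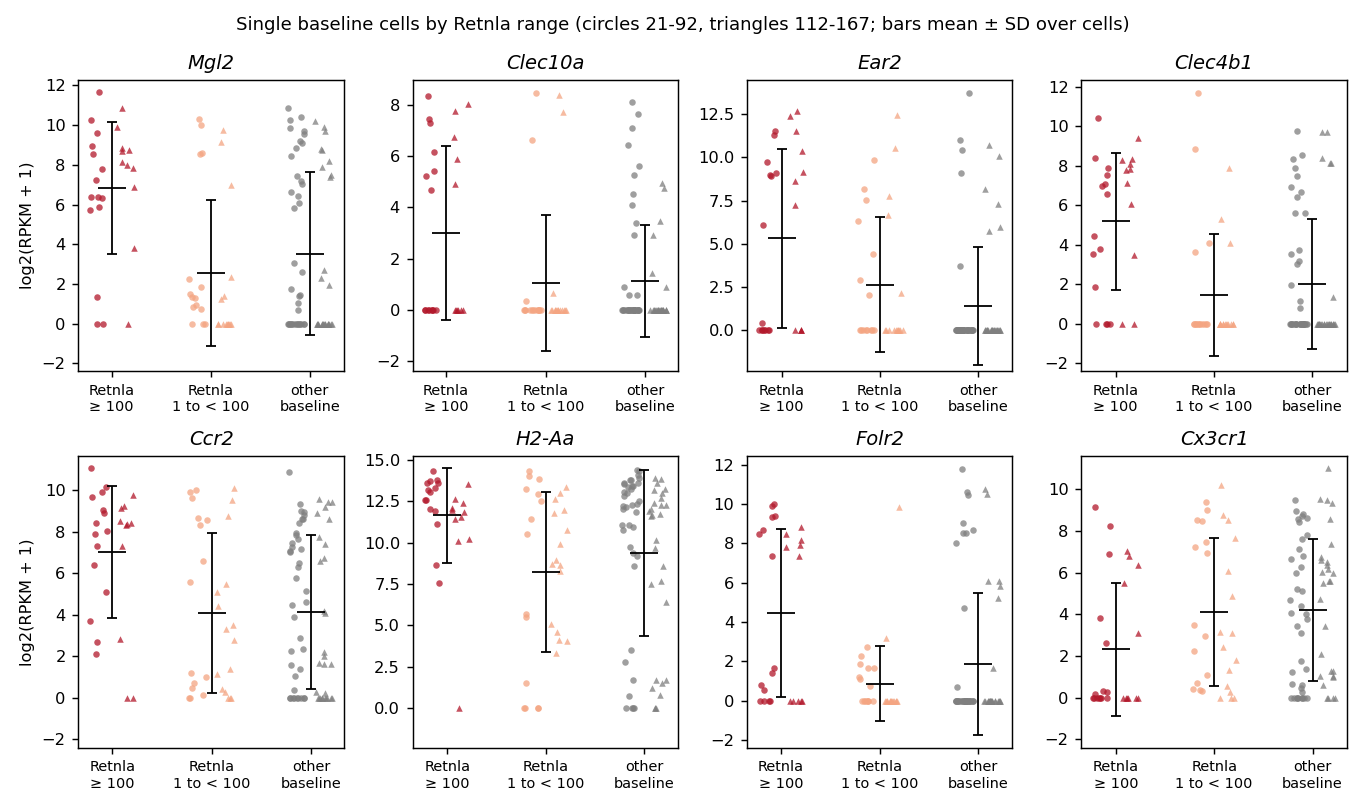
log2(RPKM + 1) of 8 genes in single baseline cells, with Retnla-high cells (26) on the left, Retnla-low cells (31) in the middle and other baseline cells (68) on the right of each panel. Circles are cells 21 to 92, triangles cells 112 to 167, and bars the mean ± SD over cells. Mgl2, Clec10a, Ear2, Clec4b1, Ccr2, H2-Aa and Folr2 stand highest in Retnla-high cells and Cx3cr1 stands lowest there, with overlap in every panel.

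Across the transcriptome the whole set of 57 cells differed little from the rest, and the Retnla-high cells more. Of 4063 genes that 25% or more of the cells on either side listed, 81 were higher by 1 or more in Retnla-listing cells with the same sign in both number stretches (1.99%) and 110 were lower (2.71%). For Retnla-high cells 513 of 4544 genes were higher (11.3%) and 104 lower (2.29%). For Retnla-low cells 80 of 4033 genes were higher (1.98%) and 366 lower (9.08%). These comparisons share the same 68 cells and are not independent of each other. The number stretches shared a sign for 51.7% of genes in Retnla-high cells, 53.6% in Retnla-low cells and 51.5% over all 57 cells. Pearson correlations of the differences between stretches were 0.13, 0.03 and 0.04 in that order. Without the rule on both stretches 542 genes were higher and 132 lower in Retnla-high cells. The median over all genes was itself 0.23 for Retnla-high cells (-0.05 in cells 21 to 92 and 0.61 in cells 112 to 167). With genes detected as a linear term the 513 and 104 genes became 264 higher and 264 lower.

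Over all 57 Retnla-listing cells against the 68 other baseline cells, each value below is a difference of mean log2(RPKM + 1), for genes that kept its sign in both number stretches, in the ratio of mean RPKM and with a term for genes detected. The 12 highest were Ear2 (2.43), Fn1 (1.73), F13a1 (1.62), Cd38 (1.54), Bri3 (1.42), Atp6v1e1 (1.37), Maf (1.36), Ccl6 (1.35), Lpl (1.35), Fcgr2b (1.33), Alas1 (1.32) and Cmtm3 (1.31). Cd38, an NAD-consuming surface enzyme, was listed in 16 of 26 Retnla-high, 16 of 31 Retnla-low and 25 of 68 other cells. Alas1, the enzyme that starts haem synthesis, was listed in 14 of 26 Retnla-high, 5 of 31 Retnla-low and 8 of 68 other cells. The 12 lowest were Esd (-2.06), Impact (-2.06), Dynlt1c (-1.97), Slc38a2 (-1.92), Commd1 (-1.81), Trex1 (-1.71), Ccl4 (-1.64), Mrfap1 (-1.59), Sfr1 (-1.58), Lsm4 (-1.55), Gpcpd1 (-1.54) and Egr1 (-1.53). Ccl4, a chemokine of activated macrophages, did not keep one direction in the Retnla-high cells alone, with differences of -3.53 in cells 21 to 92 and 1.24 in cells 112 to 167. Esd, an esterase gene, was listed in 16 of 26 Retnla-high, 11 of 31 Retnla-low and 50 of 68 other cells, with differences of -1.28 in Retnla-high and -2.71 in Retnla-low cells.

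The 12 genes that led in Retnla-high cells were Ear2, Ccl9, Ccl6, Dok2, Fn1, Mgl2, F13a1, Clec4b1, H2-DMb1, Ccr2, Maf and Idh1. Ear2 (gene 13587, chromosome 14, 44102654 to 44103531) encodes an eosinophil-associated ribonuclease that some resident macrophages of mice also make. It was listed in 14 of 26 Retnla-high cells (53.8%, interval 33.4 to 73.4%), 12 of 31 Retnla-low cells (38.7%, 21.9 to 57.8%) and 11 of 68 other cells (16.2%, 8.36 to 27.1%). Lowest, median and highest values were 0, 107.9 and 6492 RPKM in Retnla-high cells, 0, 0 and 5707 RPKM in Retnla-low cells, and 0, 0 and 13443 RPKM in other cells. Its difference was 3.90 for Retnla-high cells (3.17 and 4.88 by stretch) and 1.20 for Retnla-low cells. Ear2 was thus the 1 gene of the 12 that was higher by 1 or more in both Retnla ranges. Reads of the closely similar Ear genes may be shared among them.

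Ccl6 and Ccl9, neighbouring chemokine genes of mice that are strongly made by myeloid cells, showed some of the widest gaps. Ccl6 was listed in every Retnla-high cell, at 61.8, 4453 and 11343 RPKM for the lowest, the median and the highest cell. The same 3 values were 0, 260.2 and 2590 RPKM in Retnla-low cells and 0, 472.9 and 9963 RPKM in other cells. The median Retnla-high cell stood above every Retnla-low cell. The Ccl6 difference was 3.79 in Retnla-high cells and -0.70 in Retnla-low cells. Ccl9 had medians of 998.8 RPKM in Retnla-high, 18.5 RPKM in Retnla-low and 43.6 RPKM in other cells, and differences of 3.80 in Retnla-high and -0.79 in Retnla-low cells.

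Ccr2, a chemokine receptor that monocytes need to leave bone marrow and enter inflamed tissue, was listed in 24 of 26 Retnla-high, 20 of 31 Retnla-low and 46 of 68 other cells. Its medians were 329.8 RPKM in Retnla-high, 9.04 RPKM in Retnla-low and 15.0 RPKM in other cells, and its difference was 2.87 in Retnla-high cells (2.74 and 3.04 by stretch) and -0.05 in Retnla-low cells. Cx3cr1, the fractalkine receptor of patrolling monocytes and many resident macrophages, went the other way. It was listed in 10 of 26 Retnla-high, 22 of 31 Retnla-low and 50 of 68 other cells, with medians of 0.0607 RPKM in Retnla-high, 7.50 RPKM in Retnla-low and 22.4 RPKM in other cells. Its difference was -1.90 in Retnla-high cells (-1.85 and -1.96 by stretch) and -0.11 in Retnla-low cells. Of the 6 classical monocyte markers, Ccr2 alone was higher by 1 in Retnla-high cells. Plac8 was lower, listed in 5 of 26 Retnla-high and 24 of 68 other cells, and Ly6c2 was listed in 2 of 26 Retnla-high and 9 of 68 other cells.

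The remaining leaders had varied roles. Dok2, an adaptor that damps kinase signalling in myeloid cells, was listed in 19 of 26 Retnla-high, 4 of 31 Retnla-low and 14 of 68 other cells, with a difference of 3.35 in Retnla-high cells (3.34 and 3.36 by stretch). Fn1, which encodes fibronectin, had medians of 62.4 RPKM in Retnla-high, 1.08 RPKM in Retnla-low and 0.383 RPKM in other cells and a difference of 3.32. F13a1, the coagulation factor XIII subunit made by resident macrophages, had a difference of 3.24, and Maf, a transcription factor of resident macrophages, one of 2.81. In Retnla-low cells the differences were -0.70 for Dok2, 0.40 for Fn1, 0.27 for F13a1 and 0.14 for Maf. Idh1, the cytosolic isocitrate dehydrogenase, had a difference of 2.71 in Retnla-high cells and of -1.28 in Retnla-low cells.

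**Figure D3:**
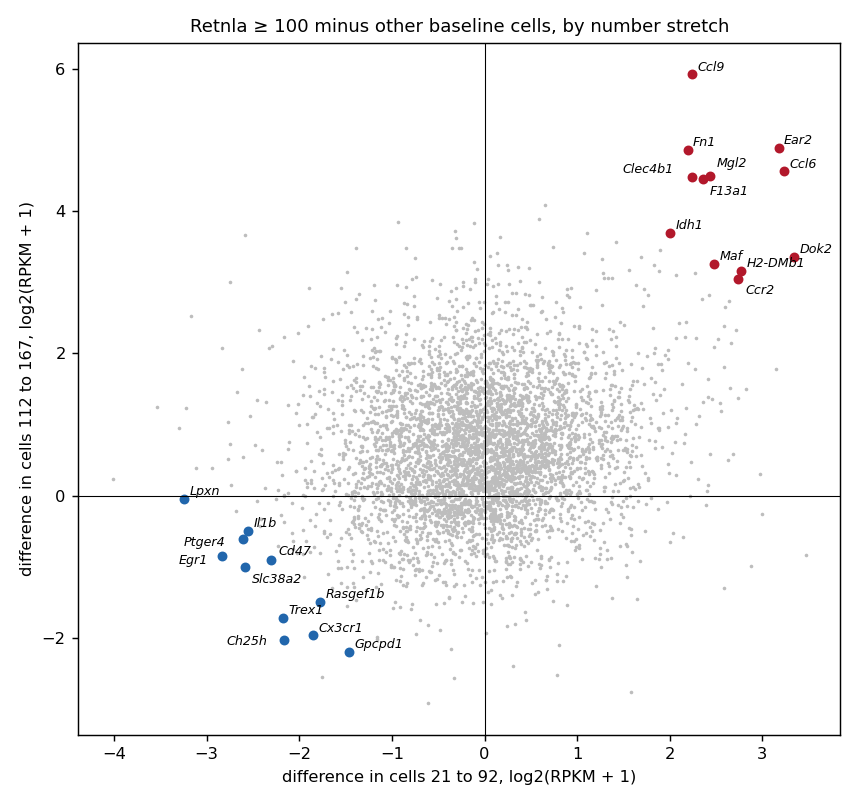
Difference between Retnla-high and other baseline cells on the log2(RPKM + 1) scale, in cells 21 to 92 (horizontal axis) and cells 112 to 167 (vertical axis), for 4544 genes. The 12 leading genes (red) are higher by 2.00 or more in both stretches, and the lowest genes named in the text (blue) are below 0 in both. Their choice required the same sign in both stretches. The median of all genes is -0.05 on the horizontal and 0.61 on the vertical axis.

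By function, the list with the highest median after the pair of lectins was that of 12 genes known from mouse small cavity macrophages, the monocyte-derived macrophages of serous cavities. In Retnla-high cells 8 of 12 were higher by 1, namely Ear2, Cd226, Clec4b1, Lyz1, Fcrls, Ccr2, Lpl and Fcna, and 1 was lower, Itgax. Their median difference was 1.57 (1.43 and 1.62 by stretch). Cd226 passed the filter through Retnla-high cells alone and so had to differ. Of the 11 members that also passed it in the other cells, 7 were higher and 1 lower, with a median of 1.60. Over all 9511 genes that 5% or more of the cells on either side listed, 5.48% were higher, 1.16% were lower and the median was 0.09. In Retnla-low cells 1 of the 12 was higher (Ear2) and 1 lower (Plbd1), with a median of -0.11, where 0.918% of 9367 genes were higher and 4.11% lower. Over all 57 Retnla-listing cells 4 of the 12 were higher and none lower, with a median of 0.75, where 0.859% of 9548 genes were higher and 1.2% lower. Cd226, an adhesion receptor better known from lymphocytes, was listed in 8 of 26 Retnla-high cells (30.8%, interval 14.3 to 51.8%) and 4 of 31 Retnla-low cells (12.9%, 3.63 to 29.8%). It was at 0 in all 68 other cells, with an upper limit of 3 cells or 4.41%. Clec4b1, a C-type lectin receptor, was listed in 20 of 26 Retnla-high, 7 of 31 Retnla-low and 22 of 68 other cells, with a difference of 3.19 in Retnla-high and -0.53 in Retnla-low cells. Markers of large cavity macrophages were scarce. Gata6, their defining transcription factor, was at 0 in all 125 baseline cells (upper limit 2.40%), and 3 of 12 members of that list passed the filter in Retnla-high cells, none of them past 1.

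Genes of resident arterial macrophages followed, of which Fcna also stands in the list just given. In Retnla-high cells 10 of 21 members past the filter were higher by 1 (Folr2, F13a1, Cbr2, Mrc1, Pf4, Ccl8, C4b, Fcgrt, Fcna and Maf), none was lower, and the median was 0.90 (0.61 and 1.32 by stretch). That is 47.6% higher, against 5.48% of all genes. The 10 were among the 18 members that also passed the filter in other cells, of which the median was 1.17. In Retnla-low cells none of 18 members past the filter was higher and 3 were lower (Folr2, Cbr2 and Fcgrt), where 4.11% of all genes were lower. Folr2, a folate receptor, was listed in 15 of 26 Retnla-high, 9 of 31 Retnla-low and 16 of 68 other cells, with a difference of 2.59 in Retnla-high cells and -1.02 in Retnla-low cells. Mrc1, the mannose receptor CD206, was listed in all 26 Retnla-high cells at no less than 4.99 RPKM, in 24 of 31 Retnla-low cells and in 51 of 68 others. Lyve1, the name-giving receptor of these macrophages, had a smaller difference of 0.67 in Retnla-high cells. Ear2 and Folr2 were listed together in 9 of 26 Retnla-high cells, 4 of 31 Retnla-low cells and none of 68 others, with the same upper limit of 4.41%.

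Antigen presentation genes were higher in Retnla-high cells for the class II molecule itself. Of 16 members, 6 were higher by 1 and none lower: Cd74 (the invariant chain), H2-Aa, H2-Ab1, H2-Eb1, H2-DMa and H2-DMb1. The 6 made 37.5%, against 5.48% of all genes higher, and 1.16% of all genes were lower. H2-Ab1 ran from 67.9 to 10261 RPKM in Retnla-high cells with a median of 4287, from 0 to 14247 in Retnla-low cells with a median of 643.1, and from 0 to 18281 in other cells with a median of 2442. The upper ends overlapped, and every Retnla-high cell was above 0, which held for neither of the other groups. The H2-Ab1 difference was 2.64 (2.27 and 3.13 by stretch), but the log2 ratio of mean RPKM was only 0.06. H2-DMb1, a subunit of the peptide exchanger H2-DM, had a difference of 2.94, although its reads may be shared with H2-DMb2. The list median was 0.49, but it differed between the stretches, at 0.21 in cells 21 to 92 and 0.84 in cells 112 to 167. In Retnla-low cells the list median was -0.35 and 1 of 16 members, Cd40, was lower, where 4.11% of all genes were lower.

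The list of alternative activation, the response to interleukin 4 and 13, held 22 genes besides Retnla, of which 12 passed the filter. Arg1, Chil4, Ccl17, Ccl22, Pdcd1lg2, Alox15, Cish, Rnase2a, Itgb3 and Flt1 did not. Of the 12, 2 were higher in Retnla-high cells, Mrc1 and Ccl24, and none was lower, which is 16.7% against the 5.48% over all genes given above. Their median was 0.44 (0.18 and 0.42 by stretch), and 8 of the 12 were above 0. Slc7a2 passed the filter through Retnla-high cells alone. Without it 2 of 11 were higher, with a median of 0.42. Arg1 was listed in 1 of 26 Retnla-high, 0 of 31 Retnla-low (upper limit 9.68%) and 2 of 68 other cells, and Chil3 (Ym1) in 3 of 26 Retnla-high, 6 of 31 Retnla-low and 10 of 68 other cells. Il4ra, the shared receptor chain for both cytokines, was listed in 10 of 26 Retnla-high, 8 of 31 Retnla-low and 24 of 68 other cells, with a difference of 0.14 in Retnla-high and -0.53 in Retnla-low cells. Stat6 was listed in 15 of 26 Retnla-high, 12 of 31 Retnla-low and 35 of 68 other cells and had a difference of 0.75 in Retnla-high and -0.34 in Retnla-low cells. The kinase gene Jak1, with a difference of 1.12, was the 1 member of 6 in the signalling list past 1 (16.7%, against 5.48% of all genes). The median of the 6 was -0.09 and had no stable sign, at -0.30 in cells 21 to 92 and 0.52 in cells 112 to 167. With genes detected as a term it was -0.28, and 3 of the 6 were above 0 without that term. Il4 and Il13 themselves were at 0 in all 125 baseline cells (upper limit 2.40%).

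Among inflammatory genes, 3 of 18 were higher in Retnla-high cells (Ccl6, Ccl9 and Cxcl2) and 2 were lower (Il1b and Cxcl16). The 3 made 16.7%, against 5.48% of all genes higher, and 1.16% of all genes were lower. Il6 passed the filter through Retnla-high cells alone. Without it 3 of 17 were higher and 2 lower, with a median of -0.30. The median of all 18 was -0.27 but took opposite signs in the stretches, at -0.80 in cells 21 to 92 and 0.56 in cells 112 to 167. In Retnla-low cells the median of 17 members was -0.70, and 2 of them were above 0. Of these 17, Il1b alone was higher and 4 were lower (Tnf, Ccl2, Ccl3 and Ccl4), where 0.918% of all genes were higher and 4.11% lower. Il1b, which encodes interleukin 1 beta, was listed in 10 of 26 Retnla-high, 22 of 31 Retnla-low and 37 of 68 other cells. Its medians were 0 RPKM in Retnla-high, 82.9 RPKM in Retnla-low and 3.52 RPKM in other cells, and its differences were -1.67 in Retnla-high cells and 1.34 in Retnla-low cells, so the 2 ranges of Retnla lay on opposite sides of the other cells. Tnf was not stable between stretches in Retnla-high cells, with -2.75 in cells 21 to 92 and 3.01 in cells 112 to 167. The 12 lowest genes of Retnla-high cells included Ch25h (-2.11), which makes 25-hydroxycholesterol, the immediate early gene Egr1 (-1.99) and the DNA exonuclease gene Trex1 (-1.97). Slc38a2, Cx3cr1, Lpxn, Gpcpd1, Ptger4, Cd47, Il1b and Rasgef1b were also among them, at -1.91 to -1.66. In Retnla-low cells Ch25h was at -0.95, Egr1 at -1.14 and Trex1 at -1.50.

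Lipid-handling genes were mixed. Of 15 lipid-laden macrophage genes, 4 were higher in Retnla-high cells (Lpl, Ctsd, Cd36 and Abcg1) and 1 was lower, the tetraspanin gene Cd9. The 4 made 26.7%, against 5.48% of all genes higher, and 1.16% of all genes were lower. The median of 0.19 had no stable sign, at -0.10 in cells 21 to 92, 0.54 in cells 112 to 167 and -0.23 with genes detected as a term. Cd9 had medians of 239.6 RPKM in Retnla-high, 748.7 RPKM in Retnla-low and 453.7 RPKM in other cells and a difference of -1.51 in Retnla-high and 0.72 in Retnla-low cells. Trem2, a lipid receptor of foamy macrophages, was listed in 22 of 26 Retnla-high, 28 of 31 Retnla-low and 51 of 68 other cells, so that 50 of the 101 Trem2-listing baseline cells listed Retnla (49.5%). Fn1 was listed in 36 of the 57 Retnla-listing cells, which made up 56.3% of the 64 Fn1-listing baseline cells. Both shares are to be read against the 45.6% of all 125 baseline cells that listed Retnla.

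The other lists are to be read against the 5.48% of all genes that were higher and the 1.16% that were lower in Retnla-high cells. Among them, 5 of 17 C-type lectin receptor genes were higher (median 0.36), as were 3 of 6 Fc receptor genes, Fcgr2b, Fcgr3 and Fcgrt (0.61), and 3 of 15 complement and efferocytosis genes, C3ar1, Pros1 and Cd36 (0.47), where Havcr2 was lower. Of 18 lysosome genes Ctsc, Ctsd, Ctsl and Lamp2 were higher (0.45), and of 14 glycolysis and hypoxia genes Hif1a, Pgk1, Hk2 and Tpi1 were higher and Hilpda lower (0.31). Of 7 chemokine receptor genes, Ccr2 and Cmklr1 were higher and Cx3cr1 was lower (0.49). None of 15 interferon response genes passed 1 in either direction (-0.34). Of 14 proliferation genes, Stmn1 and Tyms were lower (-0.20), and of 16 dissociation stress genes Btg2 was higher and Egr1 lower (-0.28). Of 16 growth and identity factor genes, Csf2ra, Maf and Zeb2 were higher and Irf8 lower (0.30), and of 13 growth factor and matrix genes Fn1 alone was higher (0.01). The counts of 1 of 16 stress genes (6.25%) and 1 of 13 matrix genes (7.69%) lay near that background. Cd209d, Cd209g, Timd4, Nr1h3, Ccnb1, Ccnb2, Hbegf and Mmp19 passed the filter through Retnla-high cells alone. Without them no count of higher or lower members changed. The medians became 0.36 for C-type lectin receptors, 0.38 for complement, 0.35 for identity factors, -0.27 for proliferation and -0.23 for matrix genes.

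Several medians over all members past the filter had no stable sign in Retnla-high cells. Between cells 21 to 92 and cells 112 to 167 they took opposite signs for complement and efferocytosis (-0.11 and 1.02), glycolysis and hypoxia (-0.09 and 0.67), proliferation (-0.53 and 0.35) and matrix genes (-0.11 and 0.13). With genes detected as a term the glycolysis median was -0.02, the matrix median -0.16 and the lysosome median 0.05. With the same term the small cavity median was 1.37 and the resident arterial median 0.89. In Retnla-low cells the medians were -0.56 for Fc receptors, -0.28 for complement, -0.22 for glycolysis, -0.11 for C-type lectin receptors and -0.07 for lysosome genes, where the median of all genes was -0.11. They were -0.74 for dissociation stress, -0.49 for interferon response and -0.35 for proliferation genes, but 0.04 for chemokine receptor and 0.14 for matrix genes. Of 16 stress genes 4 were lower there (Junb, Egr1, Btg2 and Nr4a1) and none higher, where 4.11% of all genes were lower.

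**Figure D4:**
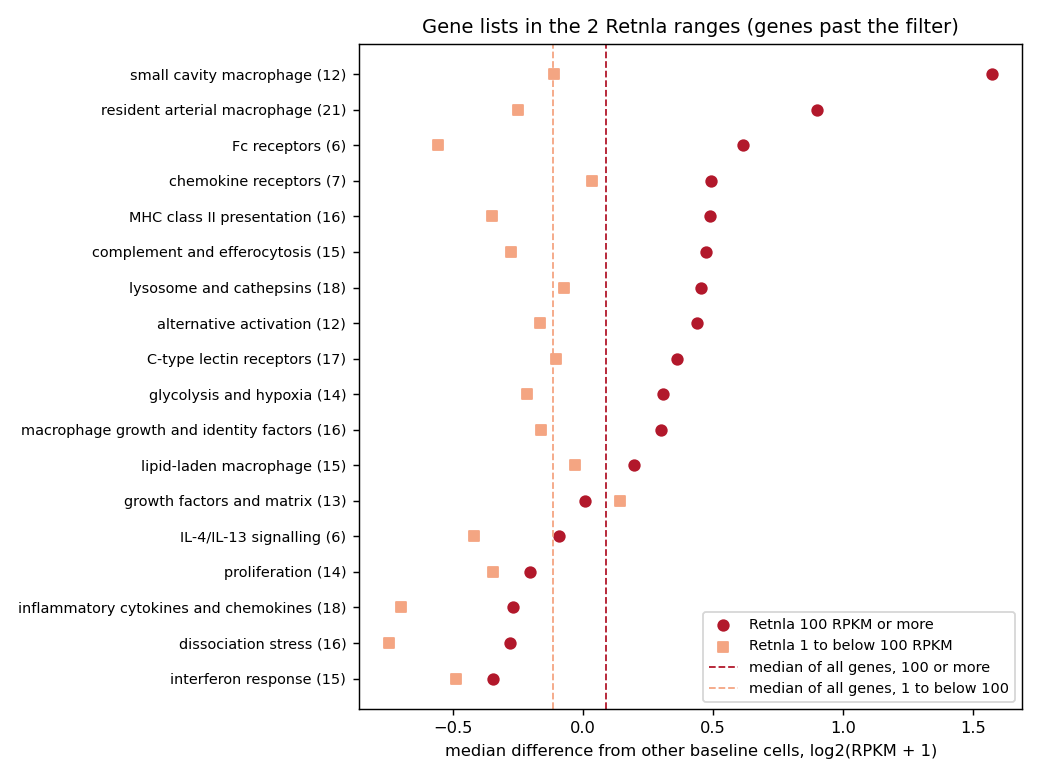
Median difference from other baseline cells on the log2(RPKM + 1) scale for gene lists, in Retnla-high cells (circles) and Retnla-low cells (squares). A list is drawn where 3 or more genes passed the filter in Retnla-high cells and also in Retnla-low cells. Numbers in brackets are genes past the filter in Retnla-high cells. Dashed lines are the medians of all genes, 0.09 and -0.11. The small cavity (1.57) and resident arterial (0.90) lists lie farthest to the right of the lists drawn in Retnla-high cells, and both lie below 0 in Retnla-low cells.

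Across these lists Ear2, Il1b and Cebpb were the members higher by 1 in Retnla-low cells. Cebpb, a transcription factor of myeloid cells, was listed in 26 of 26 Retnla-high, 30 of 31 Retnla-low and 59 of 68 other cells, with differences of 0.90 in Retnla-high and 1.29 in Retnla-low cells. Leaving out the 23 cells of the number runs moved the Mgl2 difference over all Retnla-listing cells to 1.89, Clec10a to 1.70 and the class II list median to 0.46.

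In regression, 6 of 113 cells listed Retnla (5.31%, interval 1.97 to 11.2%), at 241.1, 222.2, 53.7, 3560, 1291 and 23.5 RPKM. Mgl2 was at 0 in all 6, and Clec10a was above 0 in 2 of them, at 6.70 RPKM in the cell with 53.7 RPKM of Retnla and at 578.4 RPKM in the cell with 23.5. Among the other 107 regression cells, 10 listed Mgl2 and 18 listed Clec10a. Of the genes higher in Retnla-high baseline cells, 442 could also be read in regression, and 263 of them (59.5%) were above 0 in the 6 cells relative to the other 107, near the 57.1% of all 3755 genes. Of the genes lower, 90 could be read and 53 were below 0 (58.9%, against 42.9% of all genes). Folr2 was listed in 4 of the 6 cells and 30 of the other 107, and Ear2 in 1 of the 6 and 5 of the other 107.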

How the data were processed

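The authors deposited 1 table of RPKM values, with 24475 genes and 244 single-cell libraries; the kits (SMARTer, Nextera XT), per the labels' protocols, add no molecular identifiers. The extraction text mentions islet cells, whereas every other label says macrophages. The submitters' processing notes name mm10, CASAVA 1.8.2 and FastQC. The aligner, annotation, strand setting and RPKM program were not given in the sources used here. Because RPKM is no count, count models were not used.

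Columns were tied to samples through the number in each title, and 3 pairs of baseline libraries correlating at 0.992 or more (next pair 0.654) were averaged. A cell was kept when it listed 1000 genes or more, which held for all 125 baseline cells and all but 3 regression cells. Doublets were not called. Depth came from the value of 1 read among 454 of the 5727 genes with 1 transcript in GENCODE vM21, and was accepted in the 203 of 244 libraries where separate gene sets gave the same value within 10%. Gene positions come from RefSeq on GRCm38.p6, whose chromosomes are those of mm10.

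A difference is the mean log2(RPKM + 1) of Retnla-listing cells minus that of other baseline cells. Genes entered when 25% of the cells on either side listed them (5% for gene lists), and Retnla was left out. A gene counted as higher or lower when it differed by 1 or more with the same sign in both number stretches. The text names the 12 highest and 12 lowest such genes whose mean RPKM differs in the same direction, predicted genes aside, and members of the 21 gene lists and 20 cell type lists; other examples were chosen after their values were seen, and some genes are not reported here. The cells and lists were chosen with earlier results of these data known. The comparison was tested on the deposited values with known changes put in for randomly chosen baseline cells, and on constant values. Intervals of shares are exact (Clopper-Pearson) at 95%, and a share of 0 comes with the share that 3 cells would make. Python 3.11.15, numpy 2.4.6, pandas 2.3.3, scipy 1.17.1 and matplotlib 3.10.9 were used. The alternatives covered the pseudocount, filters, scaling, the Retnla threshold, genes detected, number stretches, copies and other cell types.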

Additional observations from a re-analysis of the deposited data

Results flagged for a closer look

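Of 4 genes looked at in the 6 Retnla-listing regression cells (Retnla, Mgl2, Clec10a and Apoe), 2 had 1 cell far above the rest. Retnla stood at 3560 RPKM in 1 cell, where the next highest had 1291. Clec10a stood at 578.4 RPKM in another cell, where the next highest had 6.70 and the other 4 were at 0. The rule used marks about 1 in 20 groups by chance only where values are normally distributed. The RPKM values here are skewed or mostly 0, so that share does not apply, and the 6 values are single cells.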

How the results depend on the processing

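Values for all 57 Retnla-listing cells are given first in each sentence, where the starting points were 81 genes higher, 110 lower, Mgl2 0.98, Clec10a 0.82, a class II list median of 0.04 and a median of 108 fewer genes listed (-108). A pseudocount of 10 left 3 genes higher and 13 lower with Mgl2 at 0.55, and for Retnla-high cells 97 higher and 19 lower with Mgl2 at 2.01, Clec10a at 1.07 and class II at 0.23. The log2 ratio of mean RPKM gave 292 higher, 346 lower, Mgl2 0.44, Clec10a 1.63 and class II -0.26, and for Retnla-high cells 640 lower, Mgl2 1.09 and class II 0.072. With cells of at least 2000 genes, 228 were lower and the difference in genes listed was -176, and for Retnla-high cells 252 were lower. With genes detected as a term, Retnla-high cells had 264 higher, 264 lower and class II at 0.32, and 17 of 26 list medians moved, of which 4 changed sign. Leaving out cells with markers of other types gave 139 higher, class II 0.30 and -55 genes listed.

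Cells 21 to 92 alone, without the rule on both stretches, gave 189 higher, 445 lower, Clec10a 0.54, class II -0.16 and -374 genes listed, and for Retnla-high cells 594 lower, class II 0.21 and -266 genes listed. Cells 112 to 167 alone gave 433 higher, 228 lower, class II 0.35 and 431 more genes listed, where 70 of 86 named genes kept their sign and, of those past 1 over all cells, Ccl12 (0.49) and Hspa1a (0.47) did not. For Retnla-high cells they gave 1706 higher, class II 0.84 and 894 more genes listed.

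A Retnla threshold of 10 gave 213 higher, Mgl2 2.06, Clec10a 1.24 and 135 more genes listed. The following were chosen after seeing the data. A threshold of 100 gave 513 higher, Mgl2 3.31, Clec10a 1.88, class II 0.49 and 525.5 more genes listed. Retnla-low cells alone gave 366 lower, Mgl2 -0.98, Clec10a -0.072, class II -0.35 and -258 genes listed, where 72 of 86 named genes kept their sign and, of those past 1 over all cells, Ccl6 (-0.70), Ccr2 (-0.049), Clec4b1 (-0.53) and H2-DMb1 (-0.10) did not. Without cells 21 to 45 there were 215 higher, Clec10a 1.47, class II 0.50 and 136 more genes listed, and for Retnla-high cells 782 higher and class II 1.15. Without numbers 50 to 62 and 115 to 125 there were 341 higher, Mgl2 1.89, Clec10a 1.70, class II 0.46 and 242 more genes listed. The cause of these changes was not tested. The 23 genes other than Mgl2 that lead or close the Retnla-high comparison kept their sign in each of 13 settings run. Part of this was fixed in advance. These genes were chosen for the same sign in each number stretch, in the log2 ratio of mean RPKM and with genes detected as a term. Leaving out the filter cannot change the difference of a gene. No paired analysis was possible because Retnla-listing and other cells lie within 1 group and share no replicate numbers. Depth limits Retnla-low values, since 17 of 27 such cells rest on 5 or fewer Retnla reads.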
